A study of Mus musculus with 7 samples.

Results

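The Eph receptors and ephrins described here are 10 genes of the mouse family, matched by symbol among 54446 genes in the count table. They were chosen by family and by their CPM (read counts scaled to a common library size) in these same libraries, with the differences between the groups known. They are the 7 receptor genes Epha1, Epha2, Epha4, Ephb2, Ephb3, Ephb4 and Ephb6 and the 3 ephrin genes Efna1, Efnb1 and Efnb2. The other 12 of the 22 Eph and ephrin genes are Epha3, Epha5, Epha6, Epha7, Epha8, Epha10, Ephb1, Efna2, Efna3, Efna4, Efna5 and Efnb3. The genes were measured by sequencing of polyadenylated RNA from pancreatic spheroids, which are cultured epithelial structures, of 4 post-caerulein and 3 untreated libraries. All mice were C57BL/6J wild-type. The post-caerulein animals had received caerulein, an analogue of cholecystokinin used to induce acute pancreatitis, and the untreated animals had not. The culture medium of both groups contained EGF, hydrocortisone and cholera toxin. The sources used here do not give the dose, the time since caerulein, the age of the animals, or whether each library came from its own animal. The spread behind every p-value is thus that of these libraries and could be technical. The comparison asks how epithelial cultures from a pancreas with a past episode of inflammation differ from those of an untreated pancreas.

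Eph receptors are receptor tyrosine kinases whose ligands, the ephrins, sit on the surface of neighbouring cells. Ephrin-A ligands are held by a lipid anchor and mainly bind EphA receptors, whereas ephrin-B ligands span the membrane, mainly bind EphB receptors and Epha4, and also signal back into the cell that carries them. In epithelia the system is known for repulsion and adhesion between cells and for keeping cell populations apart, as in the intestinal crypt, where Ephb2 and Ephb3 are targets of Wnt signalling.

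Total counts were between 34783738 and 46744497 per library. On the first principal component, which held 53.9% of the variance, the libraries formed 3 clusters: post-caerulein 4 and untreated 3 at one end (44.5 and 55.4), untreated 1 and 2 at the other (-49.3 and -47.1), and post-caerulein 1 to 3 between them (-9.44 to 4.09). The authors' deposited fold changes were obtained from the counts, to within 3.2e-08 on the log2 scale only when these 2 libraries (the smaller block) were set apart from the other 5 (the larger block) by a term of the model. No label says what the block is. Untreated 1 and 2 are a close pair, and so are post-caerulein 2 and 3. Ductal and epithelial markers (10 of 10 tested) summed to between 14300 and 21400 CPM in post-caerulein and between 13600 and 15500 CPM in untreated libraries. Members of that list moved apart. Cftr, a chloride channel of ducts, was at 4.67 to 4.76 CPM in post-caerulein libraries and at 39.1, 38.6 and 1.02 CPM in untreated 1 to 3, high in untreated 1 and 2 only, as Ephb3 and Efnb2 were. Sox9, a transcription factor of ducts, was at 37.1 to 51.7 CPM in post-caerulein libraries and at 10.9, 12.9 and 61.7 CPM in untreated 1 to 3, low in untreated 1 and 2 only. Spp1, which encodes osteopontin, was at 218 to 652 CPM in post-caerulein libraries and at 169, 155 and 291 CPM in untreated 1 to 3. These 3 genes were named after their values were seen, and their part in the patterns of the Eph and ephrin genes was not tested.

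The 10 genes were chosen with the results of these libraries known. Their differences between the groups are therefore given as a description, and counts of genes passing a threshold are set beside the same share over all genes tested. In these bulk libraries, fewer cells with a transcript and less transcript per cell cannot be told apart.

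Promoter sequences are shown for 3 genes with different patterns: Ephb3, the member with the lowest ratio of post-caerulein to untreated means, Efnb2, whose difference turned round between the blocks, and Epha2, which followed the block. The windows run from 250 bases before to 50 bases after the RefSeq start, 5′ to 3′ on the gene's own strand (GRCm38.p6). Capitals mark any match, on either strand, to 9 short motifs.
Ephb3, chr16:21204545-21204844, plus strand: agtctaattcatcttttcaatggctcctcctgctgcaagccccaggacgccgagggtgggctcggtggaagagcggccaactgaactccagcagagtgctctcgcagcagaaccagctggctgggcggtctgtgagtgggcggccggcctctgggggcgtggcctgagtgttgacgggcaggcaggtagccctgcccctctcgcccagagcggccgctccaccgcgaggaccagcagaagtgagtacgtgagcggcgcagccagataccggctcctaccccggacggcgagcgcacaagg
Efnb2, chr8:8661193-8661492, minus strand: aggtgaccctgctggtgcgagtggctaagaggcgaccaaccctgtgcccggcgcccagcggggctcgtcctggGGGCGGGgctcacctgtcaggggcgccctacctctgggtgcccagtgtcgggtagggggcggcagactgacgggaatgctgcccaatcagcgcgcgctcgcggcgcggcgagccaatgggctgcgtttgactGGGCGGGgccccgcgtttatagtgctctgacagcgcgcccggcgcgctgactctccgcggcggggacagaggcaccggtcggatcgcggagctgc
Epha2, chr4:141300971-141301270, plus strand: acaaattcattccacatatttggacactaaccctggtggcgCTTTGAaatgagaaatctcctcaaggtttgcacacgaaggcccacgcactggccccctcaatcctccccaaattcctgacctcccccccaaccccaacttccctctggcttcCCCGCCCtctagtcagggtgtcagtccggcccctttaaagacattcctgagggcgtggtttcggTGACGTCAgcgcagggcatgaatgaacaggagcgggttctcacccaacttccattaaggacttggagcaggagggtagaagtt
All 10 genes had a window, and Efna1 had another at a second start. The Ephb3 window held none of the 9 motifs. The Epha2 window held the cyclic AMP response element TGACGTCA 33 bases before the start, a motif found in 1.79% of 32851 mouse promoter windows of the same length. It also held the TCF/LEF core CTTTGA (16.0% of windows) 209 bases before the start and GGGCGGG, an Sp1 motif (25.6% of windows), on its other strand. The Efnb2 window held GGGCGGG at 2 positions. Over the 11 windows of the 10 genes, GGGCGGG stood in 8, both Efna1 windows among them, and CTTTGA in 1. The 11 windows held between 54.7% and 76.3% G and C, against a median of 52.7% over all windows. GGGCGGG consists of these letters only, so nothing is read from its count. The EGR motif GCGNGGGCG (5.55% of all windows), which overlaps GGGCGGG in part, stood in those of Efna1 and Epha1, and the RBPJ core TGGGAA (25.6%) in those of Epha4 and Efnb1. The AP-1 motif TGANTCA (7.81%), the E-box CACGTG (7.15%), the STAT motif TTCNNNGAA (8.3%) and the NF-kB motif (1.63%) stood in none. A match or its lack describes these letters in these windows only.

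Among the EphB receptors, Ephb3 (ENSMUSG00000005958.15, chromosome 16, 21204755 to 21223304, plus strand, GRCm38) was at 21.3, 19.8, 20.0 and 13.1 CPM in post-caerulein 1 to 4 and at 72.7, 81.6 and 22.6 CPM in untreated 1 to 3. Each post-caerulein library lay below each untreated one, but untreated 3 stood close to the post-caerulein libraries and far below the other untreated ones. The means were 18.6 ± 3.69 CPM (SD, n = 4) in post-caerulein and 58.9 ± 31.8 CPM (SD, n = 3) in untreated libraries. The fitted difference, post-caerulein over untreated, was -1.67 ± 0.40 (log2, SE) without the block and -1.60 ± 0.21 with it, which is 3.03-fold lower in post-caerulein libraries. Within the larger block the ratio of means was 0.264, and post-caerulein 4 over untreated 3 gave 0.581, so the direction was the same in both blocks and the size was not.

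Ephb2 (chromosome 4, 136647539 to 136835988, minus strand), which with Ephb3 sorts cells along the intestinal crypt, was at 17.6, 9.63, 12.2 and 10.4 CPM in post-caerulein 1 to 4 and at 18.7, 14.2 and 21.8 CPM in untreated 1 to 3. The groups overlapped, since post-caerulein 1 exceeded untreated 2. Its difference with the block was -0.54 ± 0.25 (log2, SE). The ratio was 0.801 in the larger block and 0.478 in the smaller one.

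Ephb4 (chromosome 5, 137350109 to 137374532, plus strand), the receptor of ephrin-B2 known from veins, was at 34.0, 38.4, 38.8 and 31.7 CPM in post-caerulein and at 39.4, 41.6 and 31.7 CPM in untreated libraries. The groups overlapped, with a difference of -0.09 ± 0.09 (log2, SE) with the block. Ephb6 (chromosome 6, 41605482 to 41620509, plus strand), a receptor without kinase activity, was at 2.78, 1.64, 1.43 and 1.47 CPM in post-caerulein 1 to 4 and at 1.16, 1.27 and 0.445 CPM in untreated 1 to 3. Each post-caerulein library lay above each untreated one, at low levels that rested on 296 reads in post-caerulein and 127 reads in untreated libraries. Its difference was 0.95 ± 0.34 (log2, SE) with the block.

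Among the EphA receptors, Epha2 (chromosome 4, 141301240 to 141329384, plus strand), a receptor of epithelial cells with ephrin-A1 as its main ligand, was at 95.4, 105, 92.8 and 394 CPM in post-caerulein 1 to 4 and at 113, 92.8 and 441 CPM in untreated 1 to 3. The groups overlapped fully, and both libraries of the smaller block stood far above the other 5. Within blocks, post-caerulein over untreated was 0.948 in the larger and 0.894 in the smaller.

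Epha4 (chromosome 1, 77367185 to 77515088, minus strand), which binds ephrins of both classes, was at 133, 122, 98.7 and 146 CPM in post-caerulein and at 150, 153 and 128 CPM in untreated libraries. The groups overlapped, and the direction differed between the blocks, at 0.780 in the larger and 1.14 in the smaller. Epha1 (chromosome 6, 42358487 to 42373268, minus strand) was at 60.9, 47.6, 50.5 and 43.7 CPM in post-caerulein and at 49.3, 47.0 and 36.1 CPM in untreated libraries. The groups overlapped, with ratios of 1.10 and 1.21 in the larger and smaller block. Its exons share 236 bases with those of Zyx on the opposite strand, and no source used here states the strand setting of the counting, so its counts may hold reads of Zyx. No other member shared exon bases with another gene of the table.

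Among the ephrins, Efna1 (chromosome 3, 89271733 to 89281142, minus strand), the lipid-anchored ligand of Epha2, was at 46.5, 56.8, 57.9 and 40.7 CPM in post-caerulein 1 to 4 and at 124, 111 and 58.0 CPM in untreated 1 to 3. The groups did not overlap, but post-caerulein 3 and untreated 3 were almost level. The means were 50.5 ± 8.28 CPM (SD, n = 4) in post-caerulein and 97.5 ± 34.8 CPM (SD, n = 3) in untreated libraries, with a difference of -0.95 ± 0.14 (log2, SE) with the block. The ratio was 0.459 in the larger block and 0.702 in the smaller one.

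Efnb2 (chromosome 8, 8617434 to 8661242, minus strand), a transmembrane ligand known from arteries, was at 122, 95.8, 95.1 and 136 CPM in post-caerulein 1 to 4 and at 259, 259 and 108 CPM in untreated 1 to 3. The groups overlapped because of untreated 3, which lay below post-caerulein 1 and 4. The difference was -0.85 ± 0.30 (log2, SE) with the block. In the larger block the ratio was 0.404, and in the smaller block post-caerulein 4 exceeded untreated 3, with a ratio of 1.26. Efnb1 (chromosome X, 99136130 to 99148991, plus strand), the other transmembrane ligand, was at 64.8, 57.0, 61.4 and 78.9 CPM in post-caerulein and at 63.8, 60.6 and 85.1 CPM in untreated libraries. The groups overlapped, and within blocks the ratios were 0.981 and 0.927.

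**Figure D1:**
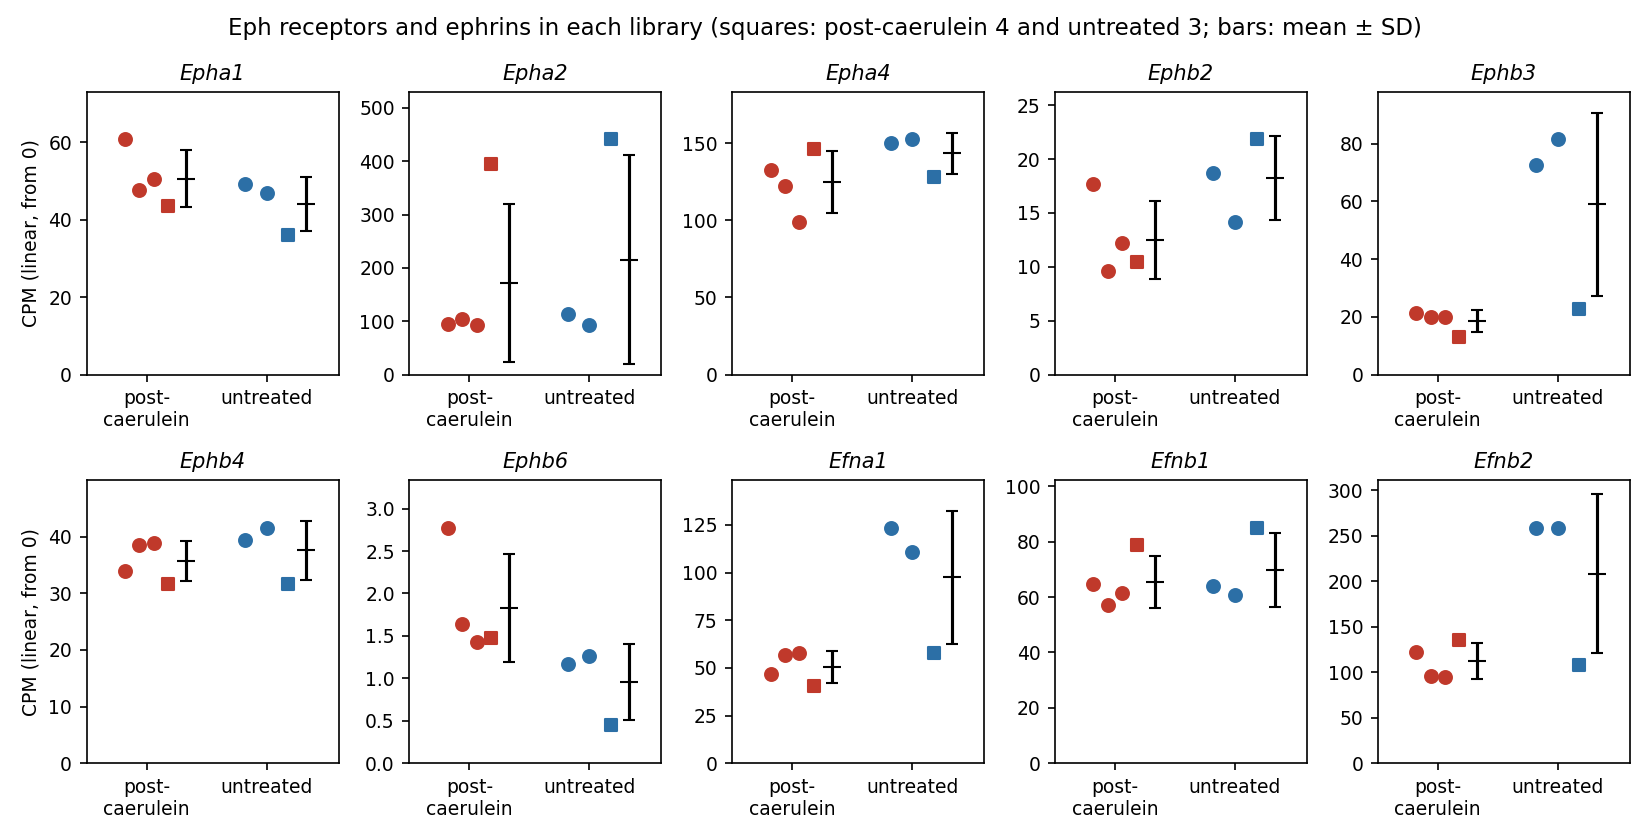
Level of each of the 10 genes in CPM (linear axis from 0) in every library, with post-caerulein libraries in red on the left and untreated libraries in blue on the right. Squares are post-caerulein 4 and untreated 3, and black bars are the mean ± SD of a group (n = 4 and 3). Ephb3 and Efna1 are low in all post-caerulein libraries and in untreated 3, Ephb6 is higher in each post-caerulein library, and Epha2 is high in both squares only.

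Over the 10 genes, 2 had all post-caerulein libraries below all untreated ones (Ephb3 and Efna1), against 4.65% of 16438 genes tested, and 1 had them all above (Ephb6), against 4.67%. Without the block, 16438 genes were tested by edgeR's quasi-likelihood method, adjusted by Benjamini-Hochberg, which called 0 of the 10 (0% of all genes), and 3 of 10 had an unadjusted p under 0.05 against 9.5% of all genes. DESeq2 called Ephb3 and Efna1 (3.12% of genes called by that tool), and limma-voom called 0 (0% of all genes). With the block, the quasi-likelihood test called Ephb3 and Efna1 lower and none higher, against 1.53% of all genes called, 0.876% lower and 0.651% higher. DESeq2 with the block called Efnb2 as well (9.16% of genes called by that tool), and limma-voom called the same 2 genes as the quasi-likelihood test (2.18% of genes called by limma-voom). Since the group difference helped to choose the genes, nothing is read from these counts. The median difference of the 10 was -0.15 (log2) with the block, 8 being negative, against a median of 0.00 and 50.6% negative over all genes tested. In the fit with the block, no member was called without untreated 1, untreated 2, post-caerulein 1, post-caerulein 2 or post-caerulein 3, or when the libraries of each close pair were summed. With pairs summed, 0 genes were called in all. With 1 library left out, the count over all genes ran from 0 to 2267, so nothing is read from the members alone. In the same fit with the block, Ephb3, Efna1 and Efnb2 were called without untreated 3 (2267 genes called in all) or without post-caerulein 4 (2086 genes). Either way the smaller block keeps 1 library, which the block term fits by itself. The group term then compares post-caerulein 1 to 3 with untreated 1 and 2, so these 2 settings repeat the comparison within the larger block and add no separate support. In the fit without the block, Ephb3, Efna1 and Efnb2 were called without untreated 3 (1149 genes) and not without post-caerulein 4 (57 genes). In the larger block alone, Ephb3, Efna1 and Efnb2 were called, all lower (13.8% of 16276 genes, 6.46% lower and 7.35% higher), with differences of -1.90 ± 0.09, -1.10 ± 0.12 and -1.29 ± 0.12 (log2, SE). In the authors' deposited table, where 7.88% of 12983 genes are called, 3.39% lower and 4.49% higher, log2 fold changes are -1.59 for Ephb3, -0.93 for Efna1 and -0.84 for Efnb2. Those 3 have a false discovery rate under 0.05 in the authors' deposited table, at 1.08e-11, 1.06e-06 and 0.0114, and the other 7 members do not.

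**Figure D2:**
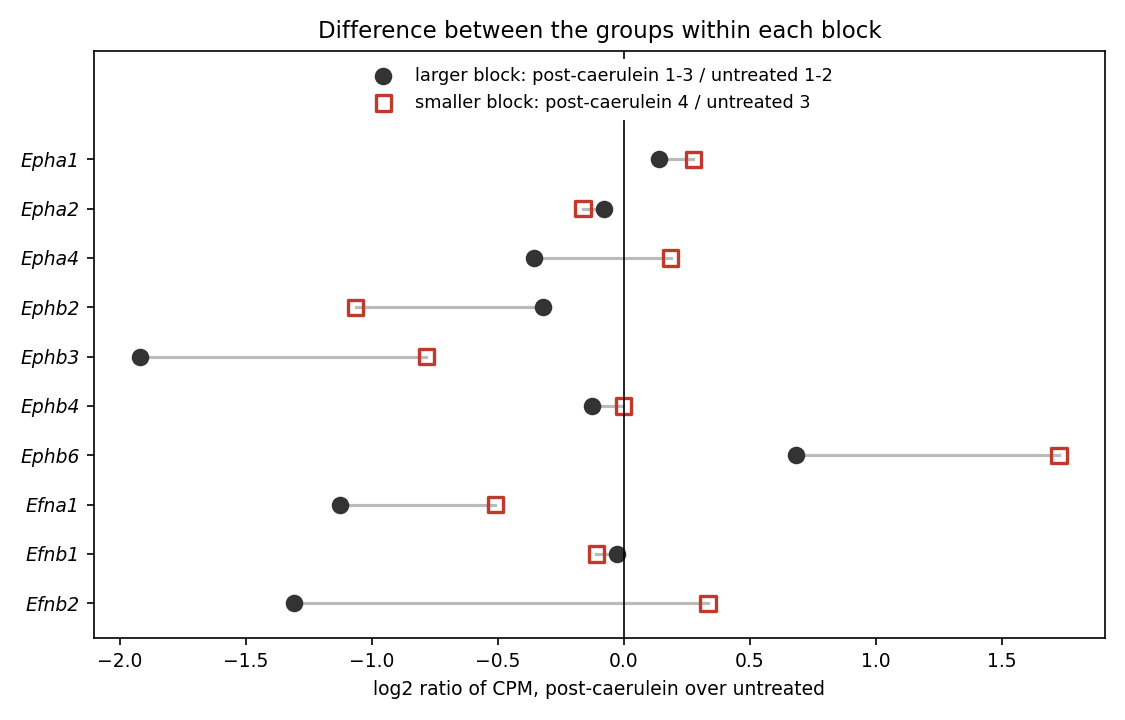
Log2 ratio of CPM, post-caerulein over untreated, for each of the 10 genes (rows) within the larger block (filled circles, ratio of means) and within the smaller block (open squares, 1 library over 1 library). The ratio has the same sign in both blocks for 8 of 10 genes, and Epha4 and Efnb2 lie on opposite sides of 0. Ephb4, counted among the 8, is level in the smaller block (-0.002). The same share over all genes was not computed.

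The size of the group difference was then compared between the blocks with an interaction term, added after the data were seen. The smaller block has 1 library in each group, and these are assumed to vary like the other libraries. Of the 10 genes, 2 were called, both with a positive term, against 3.64% of all genes, 1.77% positive and 1.87% negative. The genes were chosen with these libraries known, so the counts are a description. For Efnb2 the difference, smaller minus larger block, was 1.64 ± 0.24 (log2, SE), and for Ephb3 it was 1.14 ± 0.18. For Efna1 it was 0.61 ± 0.22 and was not called.

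The genes were chosen with their values in all 7 libraries known, so the contrast between the blocks is also given as a description. In the fit with both terms, Epha2 was higher in the smaller block by 2.05 ± 0.10 (log2, SE), or 4.16-fold. Efnb1 was also higher, by 0.41 ± 0.09. Ephb3 and Efna1 were lower in the smaller block, with differences of -1.13 ± 0.24 and -0.68 ± 0.16. The quasi-likelihood test called these 4 of the 10 genes and 16.6% of all genes, 7.99% higher and 8.58% lower, and nothing is read from that count. For Epha2 the difference was between 1.99 and 2.13 when any 1 library was left out, and it was called each time. The other 3 were not all called in those settings: 1 member, Epha2, was called without untreated 1 or without untreated 2, and 2, Epha2 and Ephb3, without untreated 3, post-caerulein 2 or post-caerulein 3. Not every setting is listed, and the number of all genes called also moved between settings. Nothing is thus read from which members were called in each. In the fit of all 7 libraries, Epha1, Epha4, Ephb2, Ephb4, Ephb6 and Efnb2 did not pass, with differences between -0.82 (Ephb6) and 0.06 (Epha4).

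**Figure D3:**
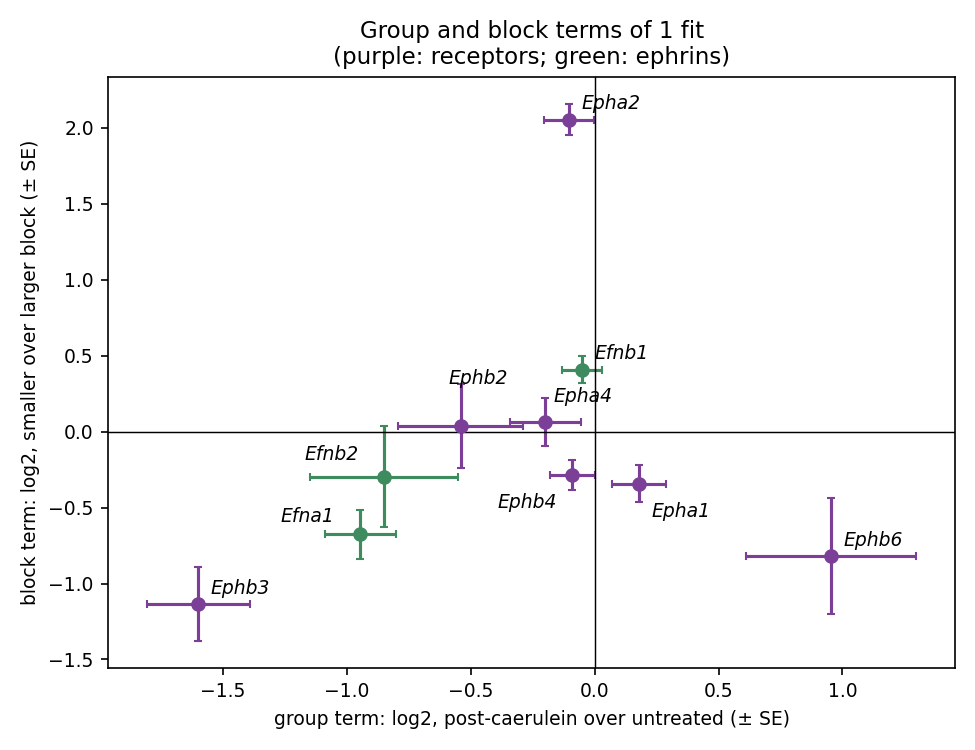
Fitted group term (x axis, log2, post-caerulein over untreated) and block term (y axis, log2, smaller over larger block) of 1 fit for the 10 genes, with bars of 1 SE. Receptors are purple and ephrins green. Epha2 lies at 2.05 on the block axis and near 0 on the group axis, while Ephb3 and Efna1 are negative on both.

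Levels between genes are compared per kilobase of exon length. In post-caerulein libraries the order was Epha2 (43.9 ± 37.9 CPM per kilobase, SD, n = 4), Efna1 (27.6 ± 4.52), Efnb2 (23.4 ± 4.21), Efnb1 (20.1 ± 2.91), Epha4 (19.7 ± 3.15), Epha1 (15.0 ± 2.17), Ephb4 (8.17 ± 0.799), Ephb3 (3.25 ± 0.646), Ephb2 (1.14 ± 0.330) and Ephb6 (0.486 ± 0.169). The ranges of each pair of neighbours overlapped from Epha2 down to Epha1 and did not overlap from Epha1 down to Ephb6. Epha2 led by its value in post-caerulein 4 and lay above Efna1 in that library alone. In untreated libraries the order was the same for the leading 3 genes, with Epha2 at 55.1 ± 49.98 CPM per kilobase (SD, n = 3), Efna1 at 53.3 ± 19.0 and Efnb2 at 43.5 ± 18.2. Epha2 led here by untreated 3 alone: in untreated 1 and 2 it was at 28.9 and 23.7 CPM per kilobase, below Efna1 (67.5 and 60.6) and Efnb2 (54.0 in both). Ephb3, at 10.3 ± 5.56, stood above Ephb4, at 8.60 ± 1.19, in 2 of 3 untreated libraries, with overlapping ranges.

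The levels per kilobase of the 22 genes were also summed. EphB receptors made up 8.21%, 8.17%, 8.67% and 4.38% of the sum in post-caerulein 1 to 4 and 9.56%, 10.7% and 5.07% in untreated 1 to 3. Ephrins of both classes took between 39.9% and 55.9% in post-caerulein and between 39.4% and 62.7% in untreated libraries. In both groups the library of the smaller block gave the lowest share of each. A share also falls when another class rises. In post-caerulein 4, ephrin-B levels summed to 52.9 CPM per kilobase, against 37.8 to 45.6 in post-caerulein 1 to 3, and ephrin-A levels to 46.3, against 43.9 to 52.4. In untreated 3 both ephrin sums were the lowest of the untreated libraries. The EphB sum was the lowest of its group in both libraries of the smaller block. Epha2 alone took 40.5% in post-caerulein 4 and 42.9% in untreated 3, against 14.4% to 16.1% in post-caerulein 1 to 3 and 9.998% to 11.6% in untreated 1 and 2. Per kilobase, Efnb2 was 3.29, 2.27, 2.23 and 3.91 times the level of its receptor Ephb4 in post-caerulein 1 to 4 and 5.98, 5.68 and 3.10 times in untreated 1 to 3. The groups overlapped in this ratio.

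**Figure D4:**
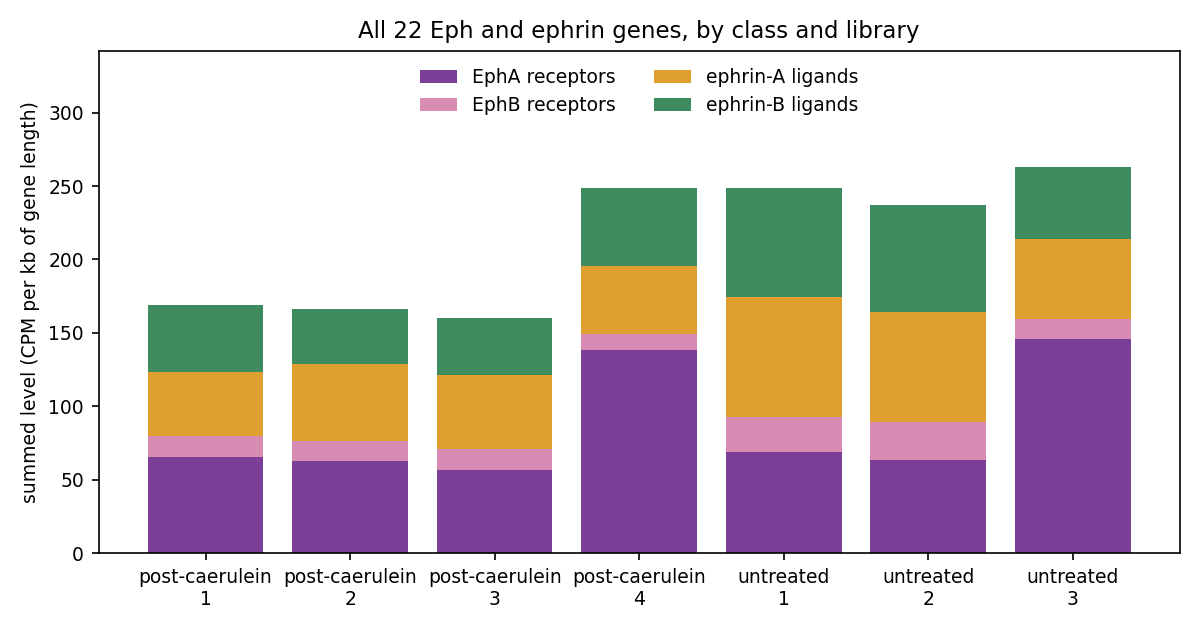
Summed level of all 22 Eph and ephrin genes in CPM per kilobase of gene length (bars from 0) in each library, post-caerulein on the left and untreated on the right, divided by class. EphA receptors take 55.7% of the sum in post-caerulein 4 and 55.5% in untreated 3, against 26.8% to 38.9% in the other 5 libraries, and the summed EphB level is highest in untreated 1 and 2.

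Of the 12 other family genes, 8 passed the filter on low counts. Of these, 0 were called by edgeR's quasi-likelihood test with or without the block, against 1.53% and 0% of all genes. At an unadjusted p under 0.05 there were 2 of 8 with the block and 1 of 8 without it, against 17.5% and 9.5% of all genes. DESeq2 called 1, Efna5, with the block, where that tool called 9.16% of all genes. Efna5, a lipid-anchored ephrin, was at 69.3, 78.6, 69.0 and 87.4 CPM in post-caerulein 1 to 4 and at 49.2, 47.5 and 82.8 CPM in untreated 1 to 3. It thus overlapped between groups through untreated 3, with a difference of 0.43 ± 0.12 (log2, SE) in the fit with the block and an adjusted p of 0.122 by edgeR. Epha7 was at 13.2, 14.6, 13.9 and 10.1 CPM in post-caerulein and at 7.55, 9.32 and 10.2 CPM in untreated libraries, with a difference of 0.50 ± 0.18 (adjusted p = 0.209, same test). Both rose in the larger block alone, by 0.60 ± 0.09 for Efna5 (adjusted p = 0.00874) and 0.74 ± 0.15 for Epha7 (adjusted p = 0.0207, edgeR quasi-likelihood). In the larger block alone, 13.8% of 16276 genes were called, 7.35% higher. Efna5 was also higher in the smaller block than in the larger one, by 0.52 ± 0.13 (adjusted p = 0.0346, same test). The block term was called for 16.6% of all genes, 7.99% higher.

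The remaining family genes were low. Efna3 lies 32.8 kilobases from Efna1 and 10.4 kilobases from Efna4 on chromosome 3, and Efna4 stood at 2.22 ± 0.429 CPM in post-caerulein (SD, n = 4) and 2.83 ± 0.410 CPM in untreated libraries (SD, n = 3). Efnb3 was at 0.868 ± 0.280 CPM in post-caerulein and 1.55 ± 0.563 CPM in untreated libraries, and Epha10 at 1.23 ± 0.418 and 1.88 ± 0.365 CPM in the same order of groups. Efna2, Efna3 and Epha8 averaged under 1 CPM in both groups. Epha3, Epha5, Epha6 and Ephb1 did not pass the filter. They had 3, 1, 0 and 5 reads in all post-caerulein libraries and 1, 0, 0 and 2 in all untreated ones, where 3 reads in a library amount to between 0.0631 and 0.0841 CPM.

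The pattern of Ephb3 over the 7 libraries was shared most closely by Cldn6, a claudin of tight junctions, Lims2, an adaptor of integrin adhesions, and Gsto1, an omega-class glutathione transferase. Their root mean square differences from Ephb3 in centred log2 CPM were 0.184, 0.202 and 0.208, against a median of 0.953 over 10965 genes. Cldn6 was at 43.6, 42.9, 31.8 and 27.2 CPM in post-caerulein 1 to 4 and at 144, 149 and 34.3 CPM in untreated 1 to 3. Like Ephb3, it was high in untreated 1 and 2 only. The nearest patterns to Efna1 were those of Zfp553, Fam213a and Map3k21, at 0.120, 0.124 and 0.124, against a median of 0.597.

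Genes that act with the family were counted in the fit with the block, where the median difference of all genes tested was 0.00 (log2). Of all genes, 17.5% had an unadjusted p under 0.05. The quasi-likelihood test of edgeR called 1.53%, with 0.876% lower and 0.651% higher, DESeq2 called 9.16% and limma-voom 2.18%. Of 31 genes tested of forward signalling, the adaptors, exchange factors and kinases that act behind Eph receptors, 0 were called by edgeR's quasi-likelihood test. Their median was -0.01, 12 of them (38.7%) had an unadjusted p under 0.05, DESeq2 called 4 higher and 3 lower, and limma-voom called 0. Rac1, a small GTPase of the actin cytoskeleton, was the most abundant, at 715 ± 186 CPM in post-caerulein (SD, n = 4) and 450.0 ± 23.7 CPM in untreated libraries (SD, n = 3). Rock2, a kinase activated by RhoA, was at 455 ± 48.1 CPM and 382 ± 11.96 CPM in the same order. Of 11 partners of ephrin-B reverse signalling and cell junctions, 0 were called, 1 (9.09%) had an unadjusted p under 0.05 against 17.5% of all genes, DESeq2 called 2 against 9.16% of all genes, and limma-voom 1, and the median was 0.01. Tjp1, a scaffold of tight junctions, was at 1027 ± 118 CPM in post-caerulein and 754 ± 135 CPM in untreated libraries, and afadin, listed as Mllt4 and Afdn, at 518 ± 60.1 and 505 ± 132 CPM.

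Of 12 phosphatases, proteases and ubiquitin ligases that act on Eph receptors and ephrins, 0 were called by edgeR's test, against 1.53% of all genes. Of them 2 (16.7%) had an unadjusted p under 0.05 against 17.5% of all genes. Both other tools called 0, and the median was 0.09. Adam10, a protease that cleaves ephrins, was at 213 ± 31.3 CPM in post-caerulein (SD, n = 4) and 177 ± 2.73 CPM in untreated libraries (SD, n = 3), and the phosphatase gene Ptprj at 213 ± 20.5 and 199 ± 22.2 CPM. Of 8 tested genes known with Ephb2 and Ephb3 from Wnt signalling in the intestinal crypt, 1 was called lower and 0 higher. Over all genes, edgeR's quasi-likelihood test called 0.876% lower and 0.651% higher. The median of the 8 was 0.05. The gene called was Prom1, a membrane glycoprotein, at 660, 571, 575 and 229 CPM in post-caerulein 1 to 4 and 1497, 1360 and 512 CPM in untreated 1 to 3. It fell by 1.22 with an SE of 0.10 on the log2 scale (adjusted p = 0.00840, edgeR), and its groups overlapped through untreated 3. Of the 8 differences, 4 were positive and 4 negative. Myc and Sox9 were the most positive, at 1.19 ± 0.38 and 1.17 ± 0.50 (log2, SE), and were not called. In the larger block alone 4 were called, against 13.8% of all genes. Myc (1.72 ± 0.25) and Sox9 (1.93 ± 0.17) were higher there, and Prom1 (-1.22 ± 0.11) and Tcf7l2 (-0.54 ± 0.12) lower. The other 7 of the 15 genes of this list did not pass the filter on low counts, among them Axin2, a Wnt feedback inhibitor (at most 0.166 CPM), and Lgr5, a crypt stem cell receptor (at most 0.021 CPM). DESeq2 called 2 of the list higher and 1 lower, limma-voom called 1, and 2 of 8 (25%) had an unadjusted p under 0.05, where the shares of all genes were 9.16%, 2.18% and 17.5%. Of 27 genes of other guidance families (semaphorins, plexins, neuropilins, netrins, slits and their receptors), 0 were called, 8 (29.6%) had an unadjusted p under 0.05 against 17.5% of all genes, DESeq2 called 5 higher and 1 lower against 9.16% of all genes called, limma-voom called 0, and the median was 0.17. Plxnb2 was the most abundant, at 1201 ± 174 CPM in post-caerulein (SD, n = 4) and 1193 ± 89.6 CPM in untreated libraries (SD, n = 3), followed by Sema3c at 461 ± 64.2 and 513 ± 61.2 CPM.

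Markers of other cell types were also summed. Efnb2 and Ephb4 are also vessel genes, and 8 endothelial markers summed to between 1.12 and 2.19 CPM in post-caerulein and between 2.02 and 3.14 CPM in untreated libraries, with Cldn5 at 0 in all libraries but post-caerulein 4. The 8 fibroblast and stellate markers summed to between 3.00 and 7.33 CPM in post-caerulein and between 0.169 and 21.3 CPM in untreated libraries, the highest being untreated 3. The 8 Schwann cell and neuron markers summed to between 9.10 and 17.4 CPM and between 3.14 and 15.8 CPM in the same order. The 8 leukocyte markers summed to between 12.8 and 36.4 CPM in post-caerulein and between 21.3 and 98.6 CPM in untreated libraries, the highest being untreated 3. In that library the sum lay above the single levels of Ephb2, Ephb3, Ephb4, Ephb6, Epha1, Efna1 and Efnb1. Most of that sum was Cd68, a lysosomal protein gene, at 11.7 to 35.0 CPM in post-caerulein libraries and 24.8, 20.6 and 97.9 CPM in untreated 1 to 3, while Ptprc, the defining leukocyte gene, reached at most 0.105 CPM. The 9 acinar markers summed to between 3.05 and 12.1 CPM in post-caerulein and between 1.46 and 2.10 CPM in untreated libraries, without overlap, and the 8 islet markers to between 0.589 and 5.98 CPM and between 0.099 and 0.601 CPM. The acinar marker Ctrb1 was at 7.32, 0.971, 2.23 and 7.15 CPM in post-caerulein 1 to 4 and at most 0.222 CPM in untreated libraries. Of the 3 acinar markers tested, edgeR called Ctrb1 higher with the block (5.59 ± 0.89, log2, SE), against 0.651% of all genes. Cela1 (1.10 ± 0.39) and Bhlha15 (-0.16 ± 0.40) were not called. The 8 tuft cell markers reached 21.7 CPM, in untreated 3. Most of that sum was Dclk1, at 18.3 CPM, while Pou2f3 was at 0.044 CPM and Il25, Gfi1b and Siglecf at 0 in that library. The part of acinar and islet markers in the group differences was not tested. The part of leukocyte, fibroblast and tuft cell markers in the pattern of untreated 3 was not tested.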

How the data were processed

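The sample titles gave each library's group and number. Per the file headers, the authors' count table holds unnormalised read counts for every gene and library beside the exons' positions and summed length. featureCounts 0.6.1, edgeR 3.2.2 and the build GRCm38 (mm10) are named in the submitters' processing notes. No source used here gives the aligner, the strand setting or the design of the authors' test. The authors' deposited table gives a log2 fold change and average log2 CPM, a likelihood ratio score, a p-value and a false discovery rate per gene, per the file headers.

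Symbols were found for 54409 of 54446 genes. The filterByExpr function, at a minimum count of 10 and total of 15, kept 16438 genes, which were scaled by TMM and tested two-sided with edgeR 4.0.16 (quasi-likelihood, robust) in R 4.3.3. P-values were adjusted by Benjamini-Hochberg over all genes kept, and under 0.05 was called. SE is the absolute log2 difference divided by the square root of F. CPM values use TMM-scaled totals of the kept genes. Fits had the group alone, or the group and the block of the deposited table. That block was known from earlier work and was checked here: with it a likelihood ratio refit gave all 1023 calls of the deposited table, and without it 319. Alternatives were other normalisations, filters and tools (DESeq2 1.42.0, limma 3.58.1), replicate numbers as a block, leaving out each library, close pairs summed and the larger block alone. The interaction of group and block was added after the data were seen. The procedure was tested on simulated data with known changes. The simulated libraries varied independently, without close pairs or an interaction of group and block, so that test does not cover those features.

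The 10 members, the 22 family genes and the other lists (194 entries in 15 lists, all matched, 1 of them under another symbol) were chosen with earlier results of these data known. Named genes were all family genes, the called members of each other list or else its 2 most abundant, and, for each member called with the block, the 3 genes (average at least 2 CPM) nearest in centred log2 CPM, after adding 0.01 CPM. The nearest genes leave out predicted and unnamed ones. Axin2, Lgr5, Myc, Sox9, Tcf7l2 and single cell type markers were named outside these rules, with their values known. Limits from counts of 3 or fewer cover counting error only. Promoter windows are from RefSeq, and figures were drawn with matplotlib 3.10.9.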

Additional observations from a re-analysis of the deposited data

Results flagged for a closer look

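Epha2 stood at 394 CPM in post-caerulein 4, far from the other 3 post-caerulein libraries at 92.8 to 105 CPM by Dixon's criterion for 4 values. Untreated 3, the other library of the smaller block, had 441 CPM, so the high value was seen once in each group.

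Ephb6 stood at 2.78 CPM in post-caerulein 1, far from the other 3 post-caerulein libraries at 1.43 to 1.64 CPM by the same criterion. This gene had 99 reads in that library and between 59 and 70 in the other 3. Dixon's criterion marks about 1 in 20 groups by chance, and 12 genes were looked at.

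The group difference of Efnb2 and that of Ephb3 differed between the blocks by the interaction term. The difference in the smaller block exceeded that in the larger block by 1.64 for Efnb2 and by 1.14 for Ephb3 on the log2 scale. For Efnb2 this turned the direction, since post-caerulein 4 had 136 CPM and untreated 3 had 108 CPM, while in the larger block post-caerulein libraries had 95.1 to 122 CPM and both untreated libraries 259 CPM. The smaller block holds 1 library of each group.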

How the results depend on the processing

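Without the block, where 0 members and 0 genes were called, DESeq2 called 2 members and 509 genes, a likelihood ratio test 2 and 343, the fit without filter 0 and 23, and the fit without both libraries of the smaller block 3 and 2247. Leaving out 1 library gave 0 to 3 members and 0 to 1149 genes, the most without untreated 3, and 57 genes without post-caerulein 4. With the block, where 2 members and 251 genes were called, the number of genes was 602 without filter, 138 with at least 50 counts in 3 libraries, 1389 with DESeq2, 1227 with a likelihood ratio test and 2247 in the larger block alone. With close pairs summed it called 0 members and 0 genes, and leaving out 1 library gave 0 to 3 members and 0 to 2267 genes. The highest of these counts came without untreated 3, which leaves the comparison within the larger block. The block term called 4 members and 2724 genes, 1 and 46 with close pairs summed, and 1 to 5 members and 788 to 3898 genes with 1 library left out. Of single genes, the group difference without the block changed sign for Ephb4 (-0.16 to 0.0052), Epha2 (-1.14 to 0.76) and Efnb1 (-0.18 to 0.10) when 1 library was left out, and none of these values was called. For Epha2 and Efnb1 the library was untreated 3, and for Ephb4 untreated 2. Mean CPM of the members moved by less than 1 SD with raw totals or other size factors. The cause of these changes was not tested.

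With the replicate number as a block, 0 members and 0 genes were called without the block of the deposited table, and 3 members and 1184 genes with it. The numbers do not pair the libraries: deviations of same-numbered libraries correlated at 0.397, 0.162 and -0.233 over genes for numbers 1, 2 and 3. At these depths genes such as Epha3 and Ephb1 could not be compared.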
